A study of Mus musculus with 2 samples.

Results

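The class III receptor tyrosine kinases and their main ligands were examined in mouse leukemic stem cells (LSCs) from a transplantation model of chronic myeloid leukemia (CML). The 8 genes were taken by symbol from the 23284 genes listed in both libraries. They comprise 5 receptors, Kit, Flt3, Csf1r, Pdgfra and Pdgfrb, and 3 ligands, Kitl, Flt3l and Csf1. RNA-seq was performed on 1 WT library and 1 STAP-1 KO library. Both came from C57BL/6J (Ly5.2) donor LSK cells, that is, lineage-negative Sca-1+ c-Kit+ progenitors, which had been infected with a retrovirus carrying BCR-ABL and GFP and transplanted into irradiated C57BL/6SJL (Ly5.1) recipients. Mice were 8 to 14 weeks old. The KO library differed from the WT library by the loss of STAP-1 in the donor cells, whereas the recipients were the same in both groups. GFP+ CD45.2+ LSK cells were sorted at day 11 after the first transplantation, so that c-Kit protein was itself a marker of the sort in both libraries. How many mice each library pooled is not given in the sources used here. With 1 library per genotype, there is no replicate check on any difference below, and p-values were not computed.

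The receptors of this class carry immunoglobulin-like domains outside the cell and a split tyrosine kinase domain inside it. A dimeric ligand brings a pair of receptors together, and the phosphorylated tails then recruit adaptors of the GRB2, PI3-kinase and SRC families, before CBL ubiquitin ligases end the signal. KIT serves stem cells and mast cells, FLT3 early lymphoid and dendritic progenitors, CSF1R monocytes and macrophages, and the PDGF receptors mainly mesenchymal cells. STAP-1 is an adaptor with PH and SH2 domains that has been described to bind c-Kit, and imatinib, the BCR-ABL inhibitor used in CML, also inhibits KIT, CSF1R and the PDGF receptors.

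Sequences before the RefSeq start are shown for Kit and Csf1, which were far lower in the KO library, and for Flt3, which was within 2-fold. They are given 5′ to 3′ along the gene (RefSeq, GRCm38.p6), and capitals mark matches of the motifs that were searched. Kit lies on the plus strand (chr5:75574737-75574915), Csf1 on the minus strand (chr3:107760470-107760719) and Flt3 on the minus strand (chr5:147400490-147400739).
Kit: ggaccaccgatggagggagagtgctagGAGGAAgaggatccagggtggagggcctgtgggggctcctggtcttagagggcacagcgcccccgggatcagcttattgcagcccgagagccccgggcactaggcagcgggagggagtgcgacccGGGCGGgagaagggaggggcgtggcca
Csf1: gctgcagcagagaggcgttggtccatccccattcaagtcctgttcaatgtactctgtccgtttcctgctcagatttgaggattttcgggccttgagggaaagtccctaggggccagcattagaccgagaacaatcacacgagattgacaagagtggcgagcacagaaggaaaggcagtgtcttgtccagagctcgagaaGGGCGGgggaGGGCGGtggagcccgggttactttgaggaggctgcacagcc
Flt3: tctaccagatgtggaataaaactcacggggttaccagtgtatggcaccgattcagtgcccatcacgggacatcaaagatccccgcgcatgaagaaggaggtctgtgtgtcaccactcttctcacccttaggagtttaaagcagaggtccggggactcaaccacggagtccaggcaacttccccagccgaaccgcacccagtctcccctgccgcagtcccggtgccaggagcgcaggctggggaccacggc
For each gene the 250 bases before the start were searched on both strands for 7 motifs. The motif of GATA factors was searched as AGATAA and that of PU.1, a factor of myeloid cells, as GAGGAA. The motif of STAT factors, which BCR-ABL activates, was searched as TTCNNNGAA, and that of AP-1, the FOS and JUN dimer, as TGAGTCA. The E-box that MITF binds was searched as CACATG, the GC box as GGGCGG, and the box of the TATA-binding protein as TATAAA. None of the matches shown overlaps a match of another motif. For Kit the 179 bases outside the GENCODE gene are printed. The Kit window held 1 GAGGAA, 223 bases before the start, and 1 GGGCGG. The Csf1 window held 2 GGGCGG and the Flt3 window held none of the 7 motifs. Of all 32851 RefSeq windows of this length, 23.3% held GAGGAA and 32.7% held GGGCGG. TTCNNNGAA was in 7.02% of all windows and AGATAA in 9.99%, and neither was in the windows of these 3 genes. The Kit window had a G and C content of 70.8% with 17 CpG, against 59.2% with 13 CpG for Flt3 and 56.4% with 10 CpG for Csf1. The median of all windows was 52.4% with 6 CpG. Windows were taken for 6 of the 8 members, and none was taken for Csf1r and Pdgfrb.

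Values are FPKM, fragments per kilobase of transcript scaled to the mapped fragments. They are divided by length, so that levels of different genes can be compared roughly, within the limits given below. A gene was called lower or higher when both libraries held 0.1 FPKM or more and their ratio reached 2. Log2 ratios are log2((STAP-1 KO + 0.1)/(WT + 0.1)) and understate the change of low genes. The steps between low values gave effective depths of about 7500000 (WT) and 10470000 (KO) reads. Reads estimated from them give the 95% intervals below, which cover counting error only. The targeted gene Stap1 was at 62.0 FPKM in the WT library and 0.309 in the KO library. The listed sort antigen Ly6a (Sca-1) was at 285 and 106 FPKM, Cd34 at 281 and 194, and Ptprc (CD45) at 107 and 38.2. The 11 hematopoietic stem cell markers summed to 30.2 and 30.7 FPKM. Of the 10 compared, 3 were lower (Mecom, Hlf and Vwf) and 1 was higher (Slamf1), against 22.9% and 12.3% of all genes compared. Gapdh and Ppia, which every cell uses, were listed at 0.391 and 0.758 FPKM in the WT library, so that a low listed value can be a failed estimate. Well-detected genes of this kind differed too. Polr2a was at 21.9 (WT) and 4.03 FPKM (KO), which is past 2-fold, Tbp at 33.5 and 62.5, and Hprt at 184 and 338. Rplp0 was at 289 and 454, Actb at 1291 and 1434, and Eef1a1 at 480 and 536. The log2 ratio of all genes also fell with transcript length, from a median of 0.48 in the shortest of 20 length bins to -1.0 in the longest.

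Of the 8 members, 6 could be compared. Of these, 4 were lower in the KO library (Kit, Pdgfrb, Flt3l and Csf1), 1 was higher (Csf1r) and Flt3 was not past the cut-off. Over all 12507 genes compared, 22.9% were lower and 12.3% higher. The 6 members had a median log2 ratio of -1.47, against -0.04 for the 10974 genes whose mean reached 1 FPKM. Pdgfra and Kitl were at the limit of detection in both libraries and were not compared.

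**Figure D1:**
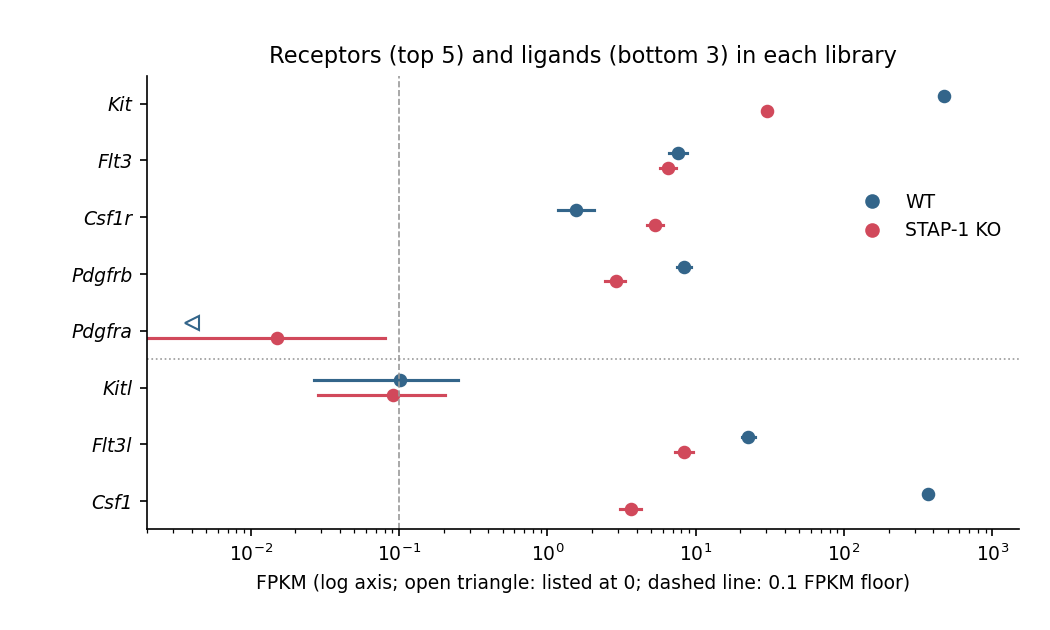
FPKM of the 5 receptors and 3 ligands in the WT library (blue) and the STAP-1 KO library (red) on a log axis, with 95% counting intervals where wider than the point and the 0.1 FPKM floor as a dashed line. Kit and Csf1 stood at 468 and 369 FPKM in the WT library and at 30.1 and 3.66 in the KO library, whereas the points of Flt3 lay side by side and Pdgfra, whose lower limit runs off the axis, was at or near 0 in both.

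Kit encodes the receptor of stem cell factor (GRCm38 chr5:75574916-75656722, plus strand). Its level was 468 FPKM in the WT library, as opposed to 30.1 in the KO library. This was 15.6-fold lower (14.8 to 16.4), with about 17663 and 1586 estimated reads behind the values. The gene was thus well covered in both libraries, and the interval was narrow. Kit was the 150th highest of the 23284 genes in the WT library and the 3593rd in the KO library. Its log2 ratio was -3.96, and 145 genes had a lower one. Genes of like transcript length had a median of -0.54, and relative to them the log2 ratio of Kit was -3.42. In bulk RNA, fewer cells of a type and less RNA per cell cannot be told apart.

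Mast cells, which depend on KIT, are a cell type that an LSK gate could hold, and most of their markers were lower in the KO library too. The 13 mast cell and basophil markers summed to 52580 FPKM in the WT library (8.10% of all FPKM) and 5645 in the KO library (0.934%). Of the 13, 11 were lower and none was higher, against 22.9% and 12.3% of all genes compared, and none was at 0 in either library. The median log2 ratio was -3.17, with a range of -5.60 to -0.33. Kit fell within that range, below 9 markers and above 4. It lay over 2 log2 units below Mcpt1, Mcpt2, Mcpt4, Mcpt8 and Prss34, of which Mcpt1 and Prss34 were not past the cut-off. Cpa3, mast cell carboxypeptidase, was at 17984 and 1775 FPKM, so that Kit was 0.0260 of Cpa3 in the WT library and 0.0170 in the KO library. Relative to Hdc, histidine decarboxylase, Kit was 0.0832 (WT) and 0.0911 (KO). Relative to the protease genes Prss34 and Tpsab1 it was 6.59 and 1.09 in the WT library, as opposed to 0.531 and 3.44 in the KO library, so that the ratio went either way within the list. Kit relative to Ly6a was 1.65 (WT) and 0.285 (KO), and relative to Cd34 1.67 and 0.155. The part of these cells in the Kit result was not tested.

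**Figure D2:**
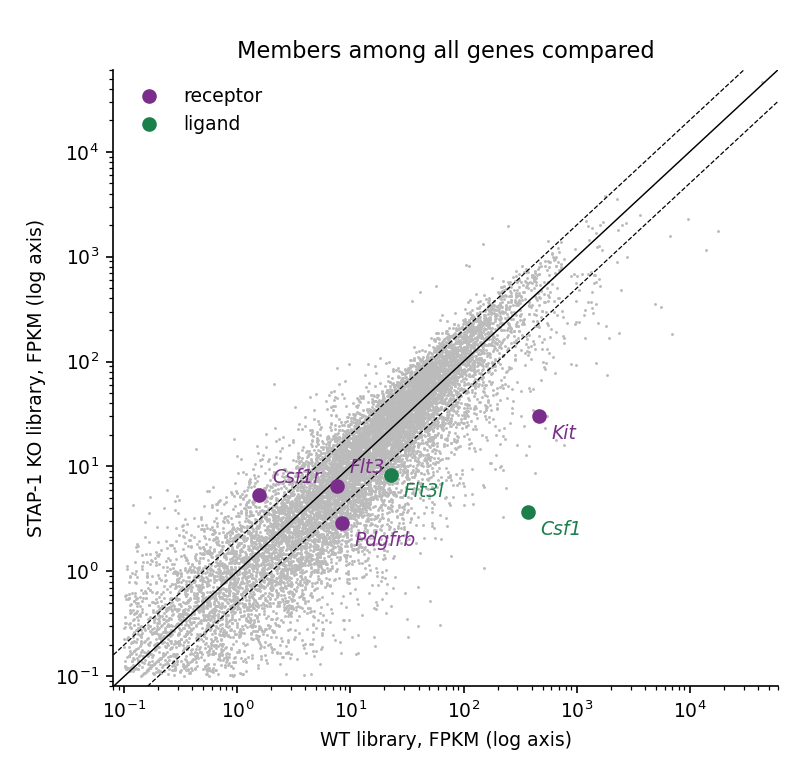
FPKM in the WT library (x axis) against the STAP-1 KO library (y axis), both on log axes, for all 12507 genes at or above 0.1 FPKM in both (grey), with the line of equality and dashed lines at 2-fold. Kit and Csf1 lie far below the diagonal at the right, Csf1r lies above it, and Flt3 lies between the dashed lines.

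Flt3 encodes the receptor of FLT3 ligand (chr5:147330741-147400489, minus strand). It was at 7.62 FPKM in the WT library and 6.54 in the KO library, from about 214 and 256 estimated reads. The level was 1.17-fold lower in the KO library, with an interval of 0.969 to 1.40 that includes 1 and stays within 2-fold. The 2 libraries did therefore not differ beyond counting error for Flt3. Among markers of the progenitors that use FLT3, Dntt, the terminal transferase of early lymphoid cells, was at 1.79 and 20.4 FPKM. Il7r, the receptor chain for IL-7, was at 11.6 and 1.56. These genes thus lay on opposite sides, and no count or sum is given for the lymphoid-primed list, which is reported in part. Dendritic cell markers summed to 26.4 and 8.45 FPKM, with 5 of 7 lower and none higher, against 22.9% and 12.3% of all genes compared. The part of such cells in the Flt3 level was not tested.

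Csf1r encodes the receptor of M-CSF and interleukin-34 (chr18:61100598-61132149, plus strand). It was at 1.56 FPKM in the WT library and 5.31 in the KO library, from about 52.7 and 250 estimated reads. It was the only member that was higher in the KO library, by 3.40-fold (2.50 to 4.64). Its log2 ratio of 1.70 was exceeded by 630 genes, and relative to genes of like length it was 2.17. Exons of Hmgxb3 on the opposite strand overlap 873 of the 5774 exonic bases of Csf1r, and the library did not keep strand. Hmgxb3 was at 13.1 and 5.71 FPKM, that is, lower in the KO library. Monocyte and macrophage markers summed to 234 FPKM in the WT library and 242 in the KO library. Of the 11 compared, 3 were higher and 4 lower, against 12.3% and 22.9% of all genes compared. Among the markers, Ly6c2 was at 20.5 and 98.0, Lyz2 at 35.2 and 92.0, Cd68 at 95.7 and 26.3, and the chemokine receptor Ccr2 at 41.8 and 10.3. None of the 14 was at 0 in both libraries, and their part in the Csf1r level was not tested.

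Pdgfrb encodes the PDGF receptor that pericytes and fibroblasts carry (chr18:61045150-61085061, plus strand). It was at 8.38 FPKM in the WT library and 2.88 in the KO library, from about 328 and 157 estimated reads. This was 2.91-fold lower (2.40 to 3.55). The log2 ratio was -1.51, but -0.97 relative to genes of like length, which is within 2-fold. Stromal and endothelial markers were mostly near 0. Col1a1, Col3a1, Lepr, Dcn, Lum and Cdh5 were each at 0.143 FPKM or less in both libraries. The exceptions were Pecam1, an adhesion molecule that blood cells carry too, at 46.9 and 23.4 FPKM, Col1a2 at 4.68 and 0.310, Cxcl12 at 0.194 and 2.68, and Emcn at 0.110 and 0.787. Pdgfrb was thus well above most stromal markers in the WT library. The cells were sorted as GFP+ CD45.2+, and the part of stromal cells in the Pdgfrb level was not tested.

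Pdgfra, the receptor that oligodendrocyte precursors and mesenchymal progenitors carry (chr5:75152292-75198215, plus strand), was listed at 0 in the WT library and at 0.0150 FPKM in the KO library. The latter is about 1 read. At these depths 3 reads correspond to 0.0604 and 0.0432 FPKM, and neither value reached them. Pdgfra and Kit are neighbours on chromosome 5 with 376700 bases and no protein-coding gene between them, and Kdr (the VEGF receptor 2, 0.331 and 0.510 FPKM) follows 276104 bases after Kit. Pdgfrb and Csf1r lie 15536 bases apart on chromosome 18. Kit was thus far above both of its neighbours in each library, and Pdgfrb was lower and Csf1r higher in the KO library.

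The make-up of the receptor class differed between the libraries. The 5 receptors summed to 486 FPKM in the WT library and 44.8 in the KO library, 10.8-fold lower. Kit made up 96.4% of this sum in the WT library and 67.1% in the KO library. The share of Flt3 was 1.57% and 14.6%, that of Csf1r 0.322% and 11.8%, and that of Pdgfrb 1.73% and 6.43%. Kit was the most abundant receptor of the class in both libraries. In the WT library Pdgfrb (7.51 to 9.35 FPKM) and Flt3 (6.64 to 8.73) followed with intervals that overlap. In the KO library Flt3 (5.76 to 7.38) and Csf1r (4.68 to 6.02) followed, again with overlapping intervals.

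**Figure D3:**
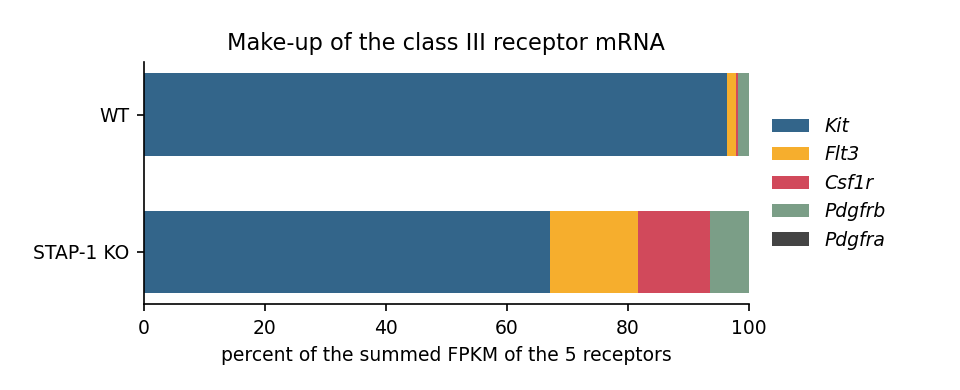
Share of each receptor, in percent of the summed FPKM of the 5 receptors, in the WT and the STAP-1 KO library. Kit filled 96.4% of the bar in the WT library and 67.1% in the KO library, where Flt3 (14.6%) and Csf1r (11.8%) became visible, and Pdgfra is too low to be seen in either bar.

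Among all 58 receptor tyrosine kinases listed, Kit also ranked highest in both libraries, with 79.2% of their summed FPKM in the WT library and 45.8% in the KO library. The sum itself was 591 and 65.7 FPKM. In the WT library 17 of the 58 reached 1 FPKM and 22 were listed at 0, and in the KO library 12 reached 1 FPKM and 20 were listed at 0. The receptor after Kit was Fgfr1 in the WT library (76.9 FPKM) and Flt3 in the KO library (6.54 FPKM). Csf1r moved from rank 11 to rank 3, and Pdgfrb from rank 3 to rank 5.

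Of the ligands, Csf1 differed most. It encodes M-CSF (chr3:107741048-107760469, minus strand) and was at 369 FPKM in the WT library and 3.66 in the KO library, from about 10965 and 152 estimated reads. This was 101-fold lower (85.8 to 119). The log2 ratio was -6.62, and only 15 of the 23284 genes had a lower one. Csf1 was the 218th highest gene in the WT library and the 8414th in the KO library. Relative to genes of like length the log2 ratio was -6.45. Csf1 thus differed more than Kit and more than each of the 13 mast cell markers, whose lowest log2 ratio was -5.60.

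Flt3l, FLT3 ligand (chr7:45129788-45136432, minus strand), was at 22.6 FPKM in the WT library and 8.37 in the KO library, from about 385 and 199 estimated reads. It was 2.70-fold lower (2.27 to 3.22), and its log2 ratio was -1.42, or -1.66 relative to genes of like length. The reads of Flt3l were estimated from the longest of its 13 transcripts. Exons of the annotated gene Gm45713 overlap those of Flt3l, and its part in the values was not tested. Kitl, stem cell factor (chr10:100015630-100100416, plus strand), was at 0.102 FPKM in the WT library and 0.0911 in the KO library. These values stand for about 4.15 and 5.19 reads if all came from the longest transcript, and for fewer otherwise. Kitl was therefore barely detected in either library, and a difference of its level could not be seen at this depth. The 3 ligands summed to 392 FPKM in the WT library and 12.1 in the KO library, 32.3-fold lower, and nearly all of the WT sum was Csf1.

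Ratios of each receptor to its ligand were then taken within each library. Kit was 4602 times Kitl in the WT library (1864 to 17520). The ratio was 426 with 1 FPKM added to both, and since a low listed value can be a failed estimate, its size rests on the listed Kitl value. In the KO library Kitl was below 0.1 FPKM and no ratio was taken. Flt3 was 0.337 of Flt3l in the WT library (0.284 to 0.400) and 0.781 in the KO library (0.647 to 0.945). The ligand exceeded the receptor in both, and the ratio was 2.32-fold higher in the KO library. For the M-CSF pair the order turned. Csf1 was 236 times Csf1r in the WT library and 0.688 of it in the KO library. The ratio of Csf1r to Csf1 was thus 0.00424 (0.00320 to 0.00559) and 1.45 (1.18 to 1.79), a 343-fold difference. With 1 FPKM added to both genes the ratios were 0.00693 and 1.36, which is a smaller difference. Both genes contributed, with Csf1 lower and Csf1r higher in the KO library.

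Other genes of the pathway were described from lists, and their counts stand beside 22.9% lower and 12.3% higher over all genes compared. Of the remaining 5 ligands of the class, 3 were compared, with Pdgfa and Pdgfc lower and Pdgfb higher (0.195 and 0.629 FPKM). Only Pdgfc reached 1 FPKM, at 8.84 in the WT library and 0.347 in the KO library, whereas Il34, the second ligand of CSF1R, was at or below 0.1 FPKM in both. Of 7 genes compared that act in the shedding or cleavage of membrane ligands and receptors, 5 were lower and none was higher. The 5 were Furin, Adam8, Adam9 and the inactive rhomboid homologues Rhbdf1 and Rhbdf2, which are cofactors and not proteases. Furin, a proprotein convertase, was at 662 and 18.0 FPKM, and Adam8 at 39.9 and 3.31. Adam17, a sheddase of KIT and CSF1R ectodomains, was at 33.2 and 23.5 and was not past the cut-off.

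Of the 30 adaptors and kinases that act next to the receptors, 14 were lower and none was higher, Stap1 itself among the 14. Their median log2 ratio was -0.95 over the 28 whose mean reached 1 FPKM, and -0.38 relative to genes of like length. Gab2, a docking adaptor downstream of KIT and BCR-ABL, was at 52.3 and 3.66 FPKM, Plcg1 at 34.2 and 4.02, and Pik3cd, the PI3-kinase catalytic subunit of blood cells, at 129 and 31.8. Of the 20 negative regulators 11 were lower and none was higher, with a median of -1.11 over the 19 whose mean reached 1 FPKM. Among them Inpp5d, the lipid phosphatase SHIP1, was at 112 and 16.4 FPKM, Spred1 at 86.8 and 19.5, and Sh2b3, the adaptor LNK, at 35.0 and 7.86. Of the 15 genes of the RAS-ERK cascade, 3 were lower and none was higher, with a median of -0.28. Over all genes compared, the shares were 22.9% lower and 12.3% higher.

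Of the transcription factors known to act at Kit, Flt3 and Csf1r, 20 were compared, with 7 lower and 5 higher. Over all genes compared, 22.9% were lower and 12.3% higher. The median log2 ratio of these factors was -0.21 over the 18 whose mean reached 1 FPKM. Gata2, a stem and mast cell factor, was at 409 and 55.2 FPKM, and Mitf, a mast cell and melanocyte factor that binds E-boxes, at 12.7 and 0.878. Lmo2, a bridging protein of the GATA complexes, was at 82.6 and 227, and Cebpa, a factor of the granulocyte and monocyte lineage, at 0.768 and 4.36. Of the 5 higher genes, Cebpa, Cebpe, Hoxa9 and Hoxa10 were low. Where the mean had to reach 5 FPKM, 5 genes were lower and only Lmo2 was higher, with a median of -0.56.

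**Figure D4:**
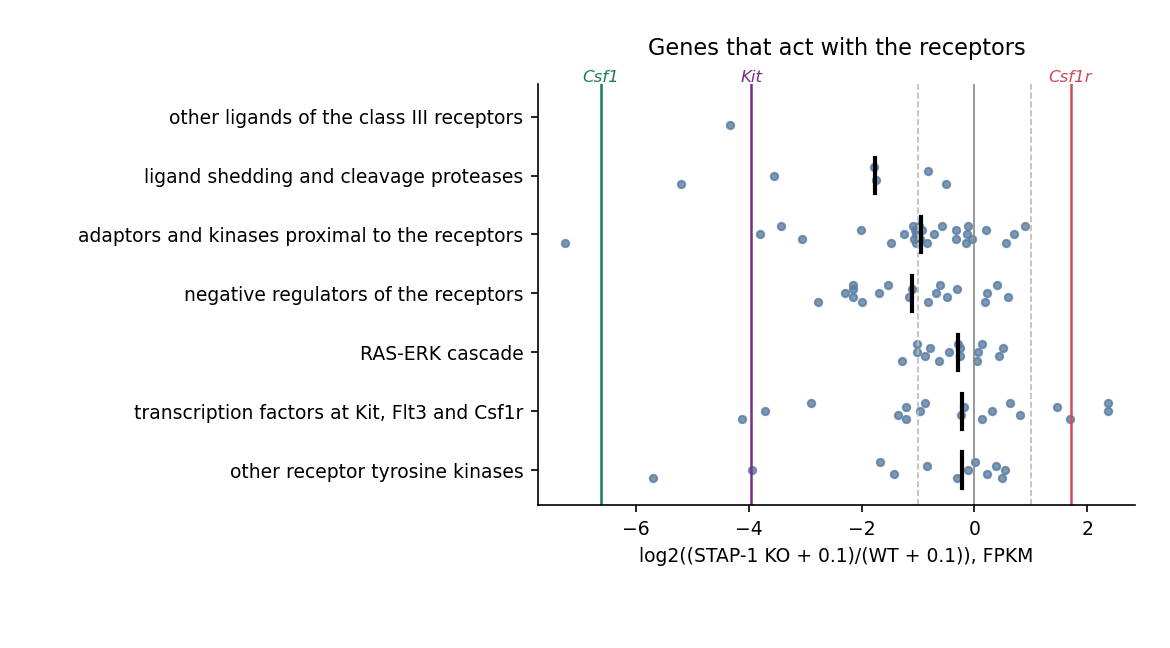
Log2((STAP-1 KO + 0.1)/(WT + 0.1)) of each gene whose mean reached 1 FPKM in 7 lists of genes that act with the receptors, with black bars at the medians of lists with at least 3 such genes, dashed lines at 2-fold and coloured lines at Csf1, Kit and Csf1r. The adaptors and the negative regulators had medians of -0.95 and -1.11, and only Stap1 lay to the left of Csf1.

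**Figure D5:**
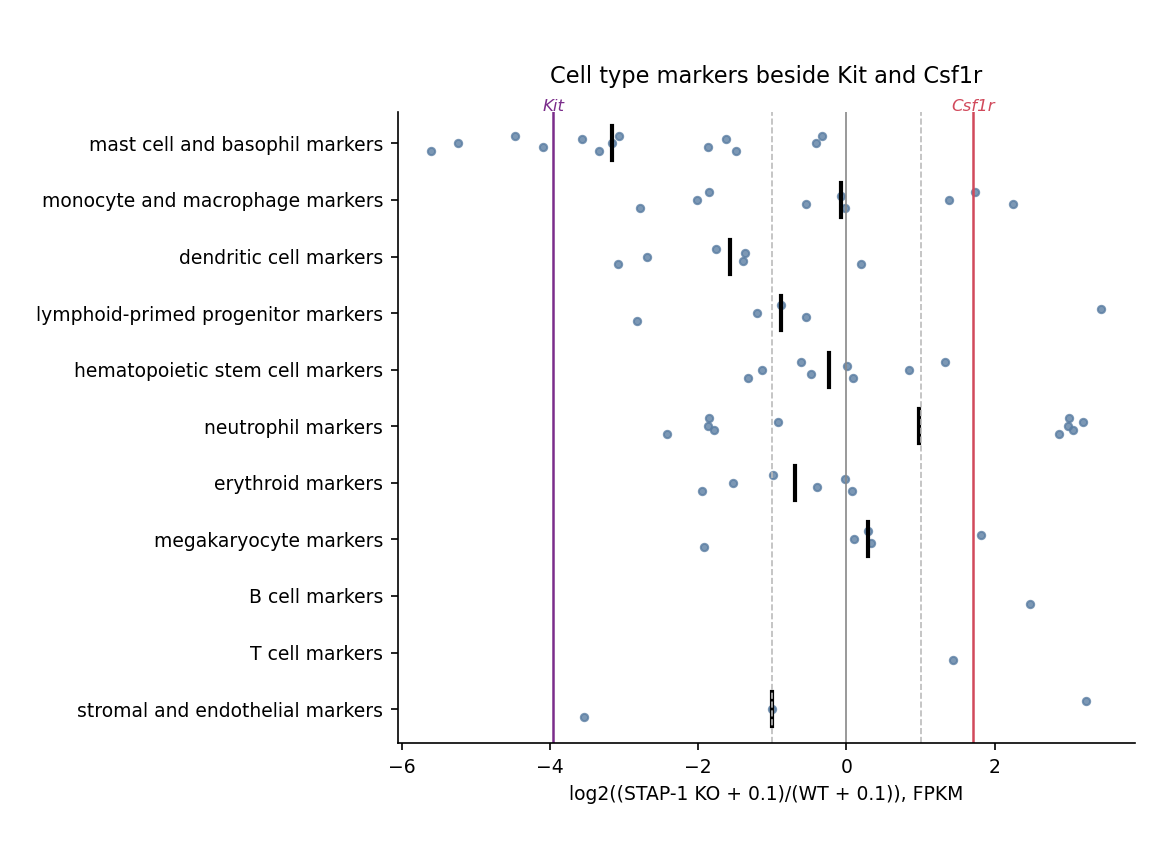
Log2((STAP-1 KO + 0.1)/(WT + 0.1)) of markers of other cell types whose mean reached 1 FPKM, drawn as points with black bars at the medians of lists with at least 3 such genes, and lines at Kit and Csf1r. The mast cell and basophil markers, at a median of -3.17, lie on both sides of Kit, while monocyte and macrophage markers spread around a median of -0.08.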

How the data were processed

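RNA was sequenced as 75-base single reads after SMART-Seq amplification. The authors mapped the reads to mm10 and deposited FPKM values per gene symbol from Cuffnorm, and the submitters' processing notes name TopHat2 2.0.13, Bowtie2 2.2.3 and Cufflinks 2.2.1. The gene annotation is not given in the sources used here. Python 3.11.15 was used with pandas 2.3.3, numpy 2.4.6, scipy 1.17.1 and matplotlib 3.10.9. Symbols were matched to GENCODE M21 for coordinates and lengths. Reads were estimated from the longest transcript and the steps of low values, of which 47.8% (WT) and 49.1% (STAP-1 KO) were whole to 0.01 read (2% if unordered). Intervals are exact Poisson or conditional binomial. Length correction subtracted the median log2 ratio of 20 length bins.

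The 8 members and the lists were chosen with earlier results of these data known. Beside the members, up to 5 genes per list past the cut-off and largest in log2 ratio with 1 FPKM added could be named, and the top 3 of marker lists in each library, of which the text gives a part. Defining markers, the called stem cell and neutrophil markers, the low transcription factors, sort antigens, genes that every cell uses, Adam17, Il34, Pdgfa, Pdgfb, Kdr and Hmgxb3 were named besides, with their values known. Some genes of the marker lists are not reported here and were left out of the lists. Scripts were tested on simulated data. Alternatives changed pseudocount, scaling, length correction, cut-off and minimum FPKM.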

Additional observations from a re-analysis of the deposited data

How the results depend on the processing

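With 1 library per genotype no replicate could be left out, and only counting error is known. The log2 ratios of Kit, Flt3, Csf1r, Pdgfrb, Flt3l and Csf1 kept their sign under each alternative pseudocount, scaling and the length correction. Kitl, at a few reads, turned from -0.08 to 0.51 under the length correction, and Pdgfra, at 0 and about 1 read, ranged from 0.02 to 1.32. List medians were read against the spread of their members, which is wide, and the adaptors moved from -0.95 to -0.38 under the length correction. Scaling the libraries to the same sum gave a log2 ratio of -3.85 for Kit. Relative to genes of like length Kit was at -3.42 and Pdgfrb at -0.97, and the median of the other receptor tyrosine kinases reversed from -0.22 to 0.57, as this correction takes off the median of genes of like length. A pseudocount of 1 FPKM gave 1.30 for Csf1r and -6.31 for Csf1, and ratios of 426 for Kit to Kitl and 0.00693 for Csf1r to Csf1 in the WT library, as the added constant weighs most on low values. At a 4-fold cut-off 2 of the 6 members compared (Kit and Csf1) were lower and 0 were higher. Of all 12507 genes compared, 1071 were lower and 300 higher at that cut-off. Where the mean had to reach 5 FPKM, 7 negative regulators were lower and 1 transcription factor was higher, because fewer genes were left. Of the other receptor tyrosine kinases only Fgfr1 was left, so that 1 was lower and 0 were higher. The median of -5.69 is thus the value of Fgfr1 alone. Below about 0.1 FPKM, few reads and failed estimates cannot be told apart.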

Other observations

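Of the 53 receptor tyrosine kinases outside the class, 16 were listed at 0 in both libraries and 19 were compared. In the STAP-1 KO library 8 were lower and 1 was higher, against 22.9% and 12.3% of all genes compared. Fgfr1, a receptor of fibroblast growth factors, was at 76.9 FPKM in the WT library and 1.39 in the KO library, and Ddr1, a collagen receptor, at 4.01 and 0.167. Ephb6, an ephrin receptor without kinase activity, was at 2.56 and 0.888, and Lmtk2 at 3.14 and 0.918. Relative to genes of like length, the log2 ratio was -5.15 for Fgfr1, -3.88 for Ddr1 and -1.36 for Ephb6. For Lmtk2 it was -0.67, which is within 2-fold. Of the 10 neutrophil markers, 5 were higher and 4 lower in the KO library, against 12.3% and 22.9% of all genes compared. The primary granule transcripts Mpo (248 and 1973 FPKM), Elane (112 and 823), Ctsg (104 and 841) and Prtn3 (57.4 and 525) were higher, as was Csf3r. The secondary granule transcripts Ltf (13.7 and 3.69), Camp (18.8 and 5.13) and Ngp (52.3 and 9.72) were lower, as was S100a9 (104 and 30.0).

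The genes most like each member were sought by their distance in log2(FPKM + 0.1) over both libraries, which is likeness of level and ratio over 2 values only. Nearest to Kit were Nov (421 and 28.2 FPKM), the CD200 receptor family member Cd200r3 (549 and 30.3) and Lgals3, galectin-3 (408 and 34.8), and only 4 genes lay within a distance of 0.5. No gene lay that close to Csf1. Its nearest were Pla2g7 (223 and 3.30 FPKM), Csf2rb2, the beta chain of the IL-3 receptor (238 and 6.17), and the mast cell tryptase Tpsab1 (430 and 8.74). Flt3, Flt3l, Csf1r and Pdgfrb lay among many like genes, with 428, 229, 74 and 225 within 0.5. The nearest were Ccdc122 for Flt3, Stk39 for Flt3l, Pard6g for Csf1r and Tada2b for Pdgfrb.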
